A study of Mus musculus with 8 samples.

Results

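The genes described here are 34 members of the interferon response and of antigen presentation, read from the count table of cortical mRNA by gene symbol. Each symbol occurred once among the 55416 rows, so all 34 members were found. The mRNA came from the cerebral cortex of mice, with 4 libraries from L192P animals and 4 from WT animals. L192P animals carry 1 Ago2 allele with the L192P substitution, placed by CRISPR/Cas editing of embryos, beside 1 normal allele, and founders were crossed to C57/Bl6 mice. WT animals carry no edited allele. No other allele, treatment or agent is named for either group, and the age and sex of the animals are not given in the sources used here. Ago2 encodes Argonaute 2, which holds a microRNA and represses mRNAs that pair with it, and the comparison asks which cortical transcripts differ in level between the genotypes.

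Interferons are secreted proteins that cells make when they sense foreign or misplaced nucleic acids. They bind receptors on the cell surface, receptor-bound kinases of the Jak family phosphorylate Stat proteins, and a complex that holds Stat2 and Irf9 enters the nucleus and binds a DNA element called the interferon-stimulated response element (ISRE). The induced genes block viral replication, degrade RNA, sense more nucleic acid and load peptides on class I molecules for display at the cell surface. In the healthy brain a low tonic level of the pathway is known in microglia, vessels, glia and neurons.

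The ISRE was looked for first, since it is the sequence that the members of this pathway are known to share. Its core was taken as GAAA, a gap of 2 bases and GAAA again, on either strand, in the window from 250 bases before to 50 bases after the start of the canonical transcript (GENCODE M39, GRCm39). The core was present in 15 of 34 members (44.1%), against 3.83% of the windows of 21627 protein-coding genes. By role, the core was present in 3 of 4 RNA sensors, 1 of 5 transcription factors, 2 of 2 genes of the ISG15 system, 3 of 4 Ifit genes, 2 of 3 Oas genes, 4 of 11 other effectors and 0 of 5 antigen presentation genes. The second element of the pathway, the gamma-activated sequence (GAS), was searched as TTCNNNGAA on either strand and was present in 8 members (23.5%), against 8.85% of all windows. A GAS match can share its last bases with an ISRE core, and such a match was counted under both. The stretches below were chosen because they hold more than 1 core before the start site, and capitals mark the repeats of the core (TTTC is GAAA read on the other strand). Each runs 5′ to 3′ along the strand of its gene.
Isg15, chr4:156285312-156285373, minus strand, 3 cores that begin 50, 44 and 38 bases before the start: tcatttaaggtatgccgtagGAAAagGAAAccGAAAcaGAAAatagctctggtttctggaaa
Usp18, chr6:121222762-121222835, plus strand, 2 cores that begin 75 and 51 bases before the start: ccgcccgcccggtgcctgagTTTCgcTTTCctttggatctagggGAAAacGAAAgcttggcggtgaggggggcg
Ifit1, chr19:34618165-34618233, plus strand, 2 cores that begin 86 and 67 bases before the start: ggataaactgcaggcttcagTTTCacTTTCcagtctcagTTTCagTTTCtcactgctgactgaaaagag
Ifit3, chr19:34560753-34560836, plus strand, 2 cores that begin 126 and 92 bases before the start: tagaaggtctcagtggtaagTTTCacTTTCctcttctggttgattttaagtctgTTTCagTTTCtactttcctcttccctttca
Bst2, chr8:71990211-71990266, minus strand, 2 cores that begin 132 and 126 bases before the start: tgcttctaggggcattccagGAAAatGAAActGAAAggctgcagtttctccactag
Zbp1, chr2:173060732-173060835, minus strand, 4 cores that begin 91, 85, 43 and 37 bases before the start: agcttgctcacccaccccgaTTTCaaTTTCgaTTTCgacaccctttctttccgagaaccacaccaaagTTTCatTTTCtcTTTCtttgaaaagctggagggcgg

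The 3 cores of Isg15 follow each other without a break, and neighbouring cores there and in Bst2 share a repeat. In Zbp1 the cores that begin 91 and 85 bases before the start also share a repeat, as do those at 43 and 37. In Usp18 the cores face opposite ways. The stretch printed for Ifit3 is present with the same 84 letters at Ifit3b (chr19:34585149-34585232, plus strand), where its cores begin 159 and 125 bases before the start. A match of these letters is a description of the sequence and not a bound site.

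The libraries held 20396357 to 43575900 counts, which were divided by a size factor per library to give normalized counts. The labelled tissue was checked by marker lists: the summed level of 10 cortical neuron genes was between 196700 and 225100 normalized counts in every library, while no library had more than 12 counts of Cd3e, Cd79a or S100a9, the defining genes of T cells, B cells and neutrophils. Of the 13 leukocyte genes listed, Cd4 (428 to 623 normalized counts) and Lyz2 (104 to 270) were well above these, and the list summed to 660 to 798 in L192P and 688 to 823 in WT. Ccr2, a chemokine receptor of monocytes, had 5.61 to 14.99 normalized counts in L192P and 2.34 to 4.52 in WT, groups that did not overlap. Its log2 difference was 1.59 ± 0.66 (SE; DESeq2 adjusted p = 0.32, range over the alternatives 0.32 to 0.65). That was the largest of the marker genes with an adjusted p, and it rested on 2 to 13 raw counts per library. The 7 choroid plexus genes listed summed to 16660 to 38370 in L192P and 14430 to 32760 in WT, so tissue other than cortex was not excluded. Replicate 1 of both genotypes stood apart from the other 6 libraries. It had 0.934 (L192P) and 1.82 (WT) normalized counts of Xist, against 5185 to 7257 in the others, so results are also given for replicates 2 to 4. Ago2 stood at 2291 ± 75.1 (L192P) and 2246 ± 130.4 (WT) normalized counts (SD, n = 4), which checks no label, since the edit is a substitution in the protein, which counts per gene do not show. The labels do not say that each library is a separate animal, so p-values measure the spread between these libraries, which may be technical. In bulk tissue, fewer cells of a type and less RNA per cell cannot be told apart.

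No member of the list passed the test for a difference between L192P and WT cortex. By the DESeq2 Wald test, with genotype as the only term and a Benjamini-Hochberg adjusted p under 0.05 over all genes, 0 of the 33 members with an adjusted p were called, where 253 of 18627 genes (1.36%) were called in all. Zbp1 had too few counts for an adjusted p. At an unadjusted p under 0.05, 1 of the 33 members passed against 9.44% of all genes tested, and in 1 of the 33 the libraries of both genotypes did not overlap against 5.97% of all genes tested. The log2 fold changes of L192P over WT were above 0 for 17 members and below 0 for 16, with a median of 0.02 beside a median of 0.0019 over all genes tested. Without WT replicate 1 the members' median was -0.16. edgeR and limma-voom also called 0 of the 29 members they tested, where they called 0.314% and 0.266% of all genes tested. At an unadjusted p under 0.05 they had 2 and 1 of these members, against 10.6% and 10.9% of all genes tested.

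Setting replicate 1 aside or using the pairing of the libraries did not bring out a member with an adjusted p either. Members with lower counts, among them Usp18, had no adjusted p in these fits. With replicates 2 to 4 alone, DESeq2 called 0 of 26 members, against 3.46% of all genes tested, and 1 member was at an unadjusted p under 0.05, against 13.6% of all genes tested. With the replicate number as a block, only 17 of the 34 members had an adjusted p. Of these 0 were called, against 4.25% of all genes tested, and 0 were at an unadjusted p under 0.05, against 14.1% of all genes tested.

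How large a change the libraries could have missed depended on the level of the member. The 95% interval of the fold change lay within 1.5-fold of no change in either direction for 15 members and within 2-fold for 25. For Adar and B2m, the members with over 1000 normalized counts, the bounds ran from 0.91-fold to 1.25-fold. For 14 members between 100 and 1000 they ran from 0.629-fold to 1.46-fold, and for 13 members between 10 and 100 from 0.362-fold to 2.27-fold. For Zbp1, Oas1a, Oas2, Mx1 and Ifi44, with fewer than 10, they ran from 0.299-fold to 3.70-fold, so that a change of 2-fold in these genes was not detectable at this depth.

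**Figure D1:**
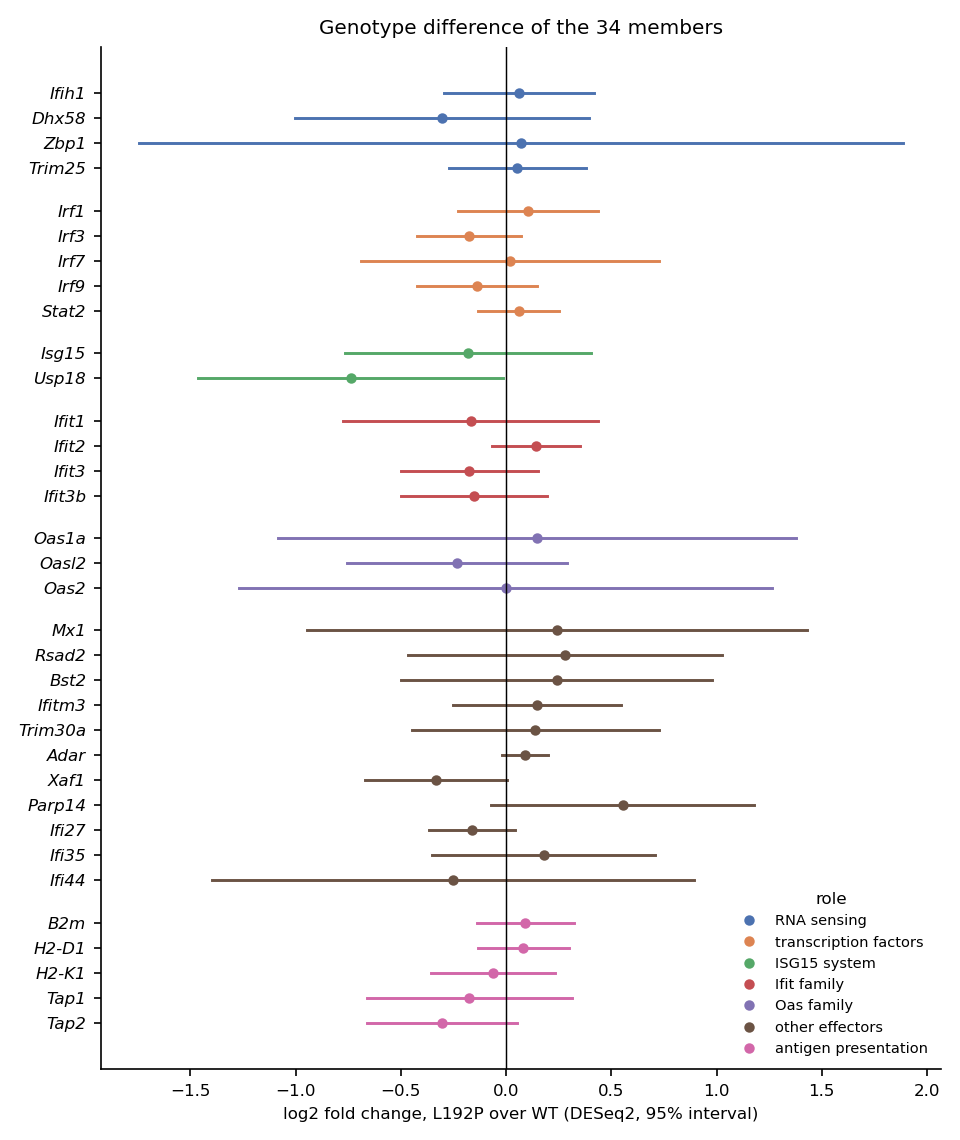
Log2 fold change of L192P over WT for the 34 members (x axis), with points for the DESeq2 estimate and lines for the 95% interval, coloured and grouped by role. The estimates lie on both sides of 0, only the interval of Usp18 leaves out 0, and the intervals widen for members with few counts, such as Zbp1.

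Among the RNA sensors, none passed the test. Ifih1 encodes MDA5 and Dhx58 encodes LGP2, which bind double-stranded RNA in the cytoplasm, Zbp1 binds Z-form nucleic acids, and Trim25 is a ubiquitin ligase that acts on the sensor RIG-I. Dhx58 had the smallest unadjusted p of the group, with 20.6, 14.8, 18.5 and 17.97 normalized counts in L192P replicates 1 to 4 and 24.6, 24.3, 22.8 and 16.4 in WT. The groups overlapped through WT replicate 4, and the log2 fold change was -0.30 ± 0.36 (SE; DESeq2 adjusted p = 0.91). Ifih1 and Trim25 were measured more closely, at log2 fold changes of 0.06 ± 0.18 and 0.05 ± 0.16 (SE). Zbp1 had between 0 and 7.02 normalized counts.

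The transcription factors of the pathway were detected in every library, and none passed the test. Irf3 and Irf7 switch on interferon genes after sensing, Irf9 and Stat2 act together at the ISRE, and Irf1 is itself induced by interferon. Irf3 had 278, 323, 409 and 321 normalized counts in L192P and 367, 419, 348 and 363 in WT. L192P replicate 3 lay above 3 of the WT libraries, and the log2 fold change was -0.17 ± 0.13 (SE; DESeq2 adjusted p = 0.77). The other 4 factors had log2 fold changes between -0.14 and 0.10. Stat2 had the narrowest interval of the group, from 0.913-fold to 1.19-fold.

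The ISG15 system held the largest difference of the list. Isg15 is a ubiquitin-like protein that is attached to other proteins during the response, and Usp18 removes it and also dampens signalling at the type I interferon receptor. Usp18 (ENSMUSG00000030107, GRCm39 chr6:121222848-121247877, plus strand) had 8.41, 18.2, 20.8 and 16.8 normalized counts in L192P replicates 1 to 4 and 22.8, 26.0, 29.3 and 28.1 in WT. All 4 L192P libraries lay below all 4 WT libraries, and L192P was lower in 4 of 4 pairs with the same replicate number. The means were 16.0 ± 5.35 and 26.5 ± 2.87 (SD, n = 4). The log2 fold change was -0.74 ± 0.37 (SE), at an unadjusted p of 0.0458, and the DESeq2 adjusted p was 0.51, with a range of 0.36 to 0.85 over the alternatives that gave one. An exact two-sided permutation test over 70 arrangements of the genotypes gave p = 0.0286, the smallest that 4 against 4 allows, before any adjustment for the members tested. That test exchanged libraries without regard to replicate number, so it left out the pairing. With the replicate number as a block the DESeq2 unadjusted p was 0.0962.
The difference thus did not pass the test over all genes, and it rested on few counts. With replicates 2 to 4 alone the log2 fold change was -0.58, at a DESeq2 unadjusted p of 0.201. Neither that fit nor the block gave Usp18 an adjusted p. An exon of Usp18 overlaps Gm44148 on the opposite strand, and whether the counting used strand is not known here. Isg15 had 22.4 to 37.6 normalized counts in L192P and 28.2 to 41.2 in WT, at a log2 fold change of -0.18 ± 0.30 (SE).

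**Figure D2:**
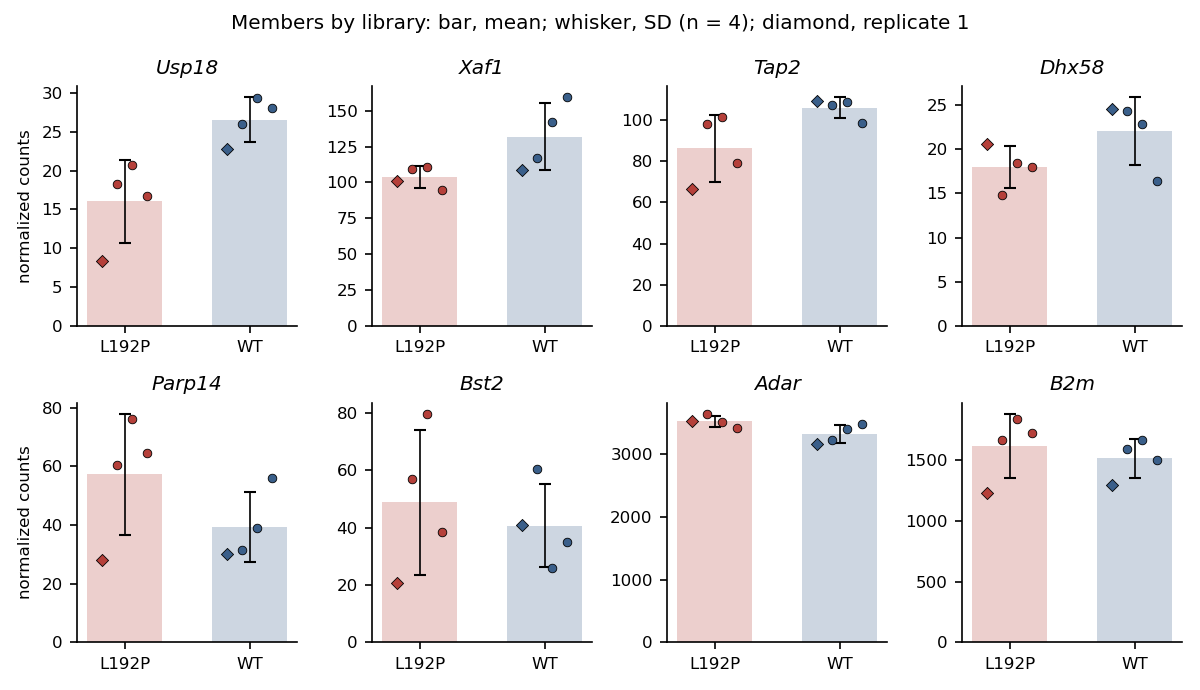
Normalized counts (y axis, from 0) of 8 members in each library, with bars for the mean, whiskers for the SD (n = 4) and diamonds for replicate 1. Only Usp18 has groups that do not overlap, and replicate 1 is the lowest library of both genotypes for Usp18, Parp14 and B2m.

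The Ifit genes, whose proteins bind viral RNA, did not pass the test. Ifit2 had 360, 386, 374 and 321 normalized counts in L192P and 304, 303, 350 and 354 in WT. Replicates 1 to 3 of L192P lay above all WT libraries and replicate 4 lay among them, and the log2 fold change was 0.14 ± 0.11 (SE; DESeq2 adjusted p = 0.78). Ifit1, Ifit3 and Ifit3b had log2 fold changes of -0.17, -0.17 and -0.15. Ifit3 and Ifit3b are not independent measurements: their transcripts were identical at 97.5% of 2042 aligned bases, and 46.9% and 48.0% of their stretches of 50 bases occurred in another gene, so reads may have been left out or divided between them.

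The Oas genes encode enzymes that make oligoadenylates in the presence of double-stranded RNA, which in turn activate an RNase. Oasl2, a relative of these enzymes, had 48.6, 56.9, 70.3 and 38.3 normalized counts in L192P and 39.2, 63.8, 79.3 and 70.2 in WT. The groups overlapped, and the log2 fold change was -0.23 ± 0.27 (SE; DESeq2 adjusted p = 0.91). Oas1a and Oas2 had means of 8.79 and 6.03 over the 8 libraries and log2 fold changes of 0.15 ± 0.63 and 0.00 ± 0.65 (SE). Of the 50-base stretches of Oas1a, 56.8% also occur in Oas1g, so its counts are uncertain.

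The other effectors held the largest positive estimate of the list, that of Parp14, and several negative ones. Xaf1 encodes an inducible antagonist of an apoptosis inhibitor, and it had 101, 109, 111 and 94.6 normalized counts in L192P and 108, 117, 142 and 159 in WT. L192P was lower in 4 of 4 same-numbered pairs, but the groups overlapped, and the log2 fold change of -0.33 ± 0.17 (SE) had an unadjusted p of 0.0536 and a DESeq2 adjusted p of 0.54. Over the alternatives its adjusted p was between 0.28 and 0.92. Parp14, an ADP-ribosyltransferase, had 28.0, 60.3, 76.1 and 64.7 normalized counts in L192P and 30.1, 31.6, 39.1 and 56.2 in WT. Replicates 2 to 4 of L192P lay above all WT libraries and replicate 1 below them, and the log2 fold change of 0.55 ± 0.32 (SE) had a DESeq2 adjusted p of 0.63, with a range of 0.17 to 0.99 over the alternatives. Parp14 shares exon sequence with Gm49730 on the same strand.

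Adar, Ifi27, Rsad2, Bst2 and Ifitm3 followed with smaller differences. Adar encodes the enzyme that edits adenosine to inosine in double-stranded RNA, and it had 3521, 3634, 3504 and 3416 normalized counts in L192P and 3158, 3225, 3389 and 3470 in WT. The highest WT library lay above the lowest L192P library, and the log2 fold change was 0.09 ± 0.06 (SE; DESeq2 adjusted p = 0.68). Ifi27, whose product is a small protein of mitochondria and the nuclear envelope, had 625 to 798 normalized counts in L192P and 665 to 870 in WT, with a log2 difference of -0.16 ± 0.10 (SE).
Rsad2 encodes viperin, which makes a chain-terminating nucleotide, and it had 13.7 to 26.5 normalized counts in L192P and 12.99 to 21.1 in WT. Bst2, or tetherin, holds virions at the membrane, and its libraries were the most scattered of these, with 20.6, 56.9, 79.6 and 38.3 normalized counts in L192P and 41.0, 60.4, 26.1 and 35.1 in WT. The estimate was 0.24 ± 0.38 on the log2 scale (SE), and it was -0.10 without L192P replicate 3. Ifitm3, which blocks entry of viruses from endosomes, had 99.96 to 221 normalized counts in L192P and 126 to 163 in WT. The estimate was 0.15 ± 0.20 on the log2 scale (SE) and -0.03 without L192P replicate 3. Mx1, Trim30a, Ifi35 and Ifi44 had log2 fold changes between -0.25 and 0.24.

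No gene of class I antigen presentation passed the test. H2-K1 and H2-D1 encode the heavy chains that present peptides to T cells, B2m encodes their light chain, and Tap1 and Tap2 pump peptides into the endoplasmic reticulum. B2m had 1232, 1669, 1840 and 1721 normalized counts in L192P and 1300, 1591, 1670 and 1498 in WT. Replicate 1 was lowest in both genotypes and the groups overlapped, with a log2 fold change of 0.09 ± 0.12 (SE; DESeq2 adjusted p = 0.92). H2-D1 and H2-K1 had log2 fold changes of 0.08 ± 0.11 and -0.06 ± 0.15 (SE). Tap2 had 66.3, 97.9, 101.5 and 79.1 normalized counts in L192P and 109, 107, 109 and 98.3 in WT. One pair of libraries overlapped, L192P replicate 3 with WT replicate 4, and the log2 fold change of -0.31 ± 0.18 (SE) had a DESeq2 adjusted p of 0.65. Tap1 had a log2 fold change of -0.17 ± 0.25 (SE). Of the 50-base stretches of H2-D1 and H2-K1, 14.2% and 8.8% occur in other genes of the family or elsewhere.

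Members with and without an ISRE core were set side by side as a description. The 14 members with a core and an adjusted p had a median log2 fold change of -0.08, with 6 above and 8 below 0, and the 19 members without a core had a median of 0.05, with 11 above and 8 below 0. In both groups 0 members were called.

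The members differed far more among themselves than between genotypes. Per kilobase of exon, the mean over the 8 libraries ran from 0.85 normalized counts for Zbp1 to 743 for B2m, which stood above 93.8% of all genes tested. Adar followed with 420 normalized counts per kilobase, then H2-D1 with 232, Ifi27 with 164 and Ifitm3 with 122. The libraries of B2m (585 to 874 per kilobase) and Adar (388 to 447) did not overlap, nor did those of Adar and H2-D1 (190 to 258). H2-D1 and Ifi27 (140 to 195) overlapped, as did Ifi27 and Ifitm3 (78.0 to 173). Several strongly inducible genes were near the bottom of the order: Ifit1 had 4.95, Rsad2 4.50, Mx1 2.10, Oas2 1.35 and Ifi44 1.25 normalized counts per kilobase, with the last 3 above no more than 3.32% of the genes tested. Isg15, the shortest member, had 41.9.

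**Figure D3:**
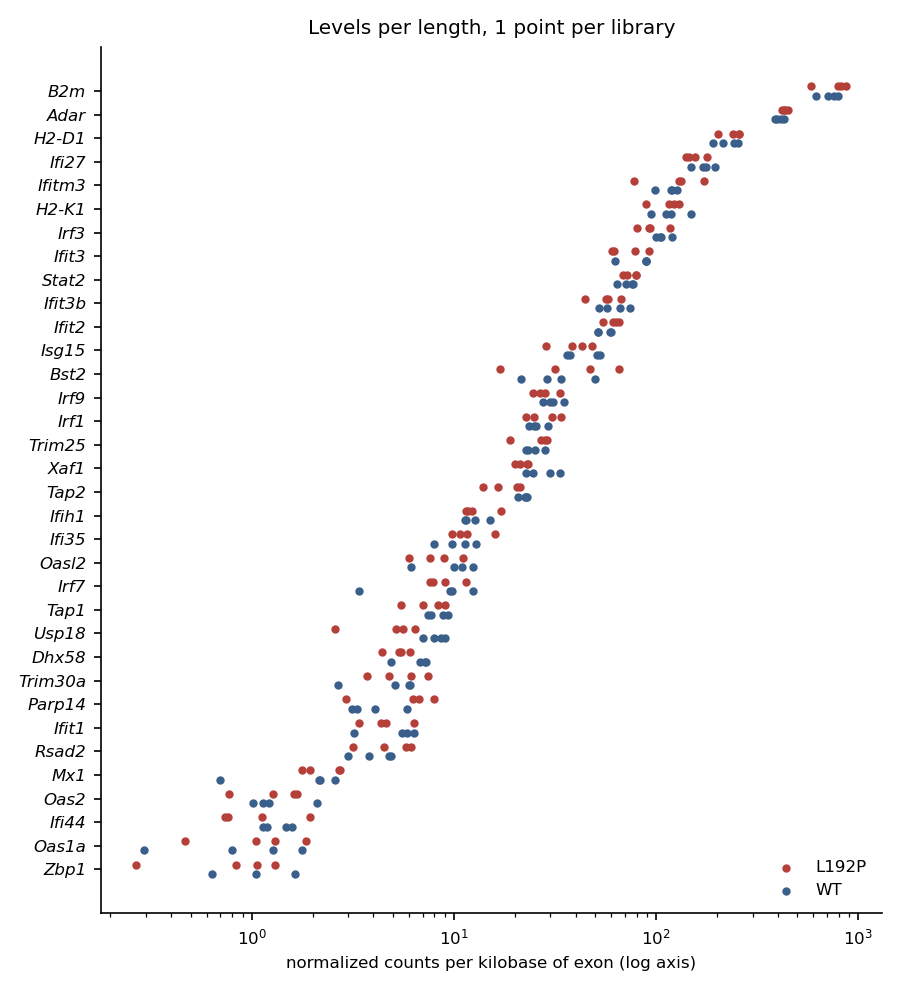
Normalized counts per kilobase of exon (log x axis) of the 34 members, ordered by their mean, with 1 point per library in red for L192P and blue for WT; a library with 0 counts of Zbp1 is not drawn. B2m and Adar lie above the others, and the colours overlap at every member except Usp18.

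Across libraries, many members were low in replicate 1 of both genotypes. Of the 29 members with a mean of at least 10 normalized counts, L192P replicate 1 was the lowest of the 8 libraries for 14 (48.3%), where it was lowest for 14.6% of 17136 genes of the same mean level. Within WT, replicate 1 was the lowest of 4 for 18 of the 29 members, against 30.9% of those genes, and within L192P for 19, against 28.7%. For 11 members (Trim25, Irf9, Isg15, Usp18, Ifit1, Ifit3, Ifitm3, Parp14, B2m, H2-D1 and H2-K1) it was lowest in both genotypes, against 15.0% of all these genes. The median over the members of the log2 value minus its mean over the 8 libraries was -0.25 in L192P replicate 1 and -0.17 in WT replicate 1, and between -0.06 and 0.18 in the others.
Markers of vessels, microglia, astrocytes and oligodendrocytes were all low in these libraries. The summed level of 12 endothelial genes was 638 and 683 normalized counts in replicate 1 of L192P and WT, and 984 to 1895 in the other 6, and that of 15 microglial genes was 7216 and 7910, and 9487 to 12890 in the other 6. The sum of 8 astrocyte genes was 45370 and 50960, and 67050 to 72670 in the other 6, and that of 7 oligodendrocyte genes was 90920 and 92870, and 104400 to 132100 in the other 6. The leukocyte sum was also lowest in replicate 1, at 660 and 688. Other lists did not follow. The choroid plexus (22830 and 24580) and fibroblast sums (983 and 1048) lay inside the range of the other 6. Border macrophage and erythroid sums in WT replicate 1 (389 and 2371) were the highest of WT, while those of L192P replicate 1 (341 and 1374) were the lowest of L192P. Cortical neuron sums, at 222500 and 225000, were high but inside the range of the other 6 (196700 to 225100). The part of these cell types in the members' levels was not tested, and the members were not called with or without replicate 1.

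**Figure D4:**
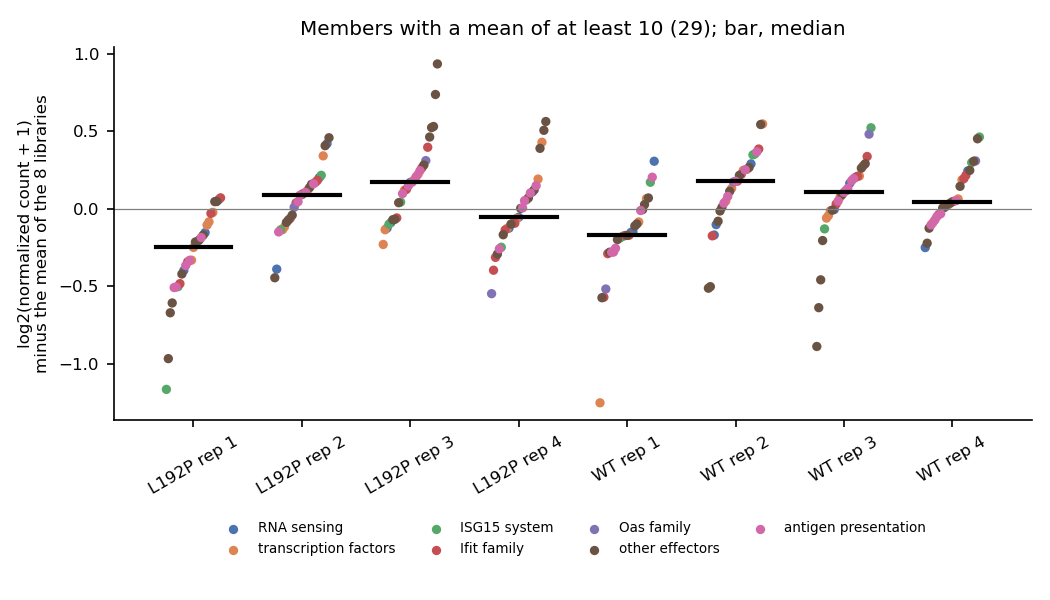
Log2 of the normalized count plus 1, minus the mean of the 8 libraries (y axis), for the 29 members with a mean of at least 10 in each library (x axis), coloured by role, with bars for the median. The median is lowest in replicate 1 of both genotypes, at -0.25 and -0.17.

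The genes around the members were read from 6 further lists that cover the rest of the pathway. Of 109 genes, 92 had an adjusted p, 1 was lower in L192P and 0 were higher, against the 1.36% of all genes. The median log2 fold change was 0.06, with 57 above and 35 below 0. The called gene was Ifngr2, the second chain of the receptor for interferon gamma, which brings Jak2 to the complex. Ifngr2 (ENSMUSG00000022965, GRCm39 chr16:91343906-91362512, plus strand) had 912, 808, 919 and 870 normalized counts in L192P and 1146, 1102, 1163 and 1100 in WT. All L192P libraries lay below all WT libraries, at means of 877 ± 50.96 and 1128 ± 31.7 (SD, n = 4). The log2 fold change was -0.36 ± 0.07 (SE), or 0.778-fold with a 95% interval of 0.707 to 0.857, and the DESeq2 adjusted p was 0.000155. It was called in 17 of 17 alternatives, with adjusted p between 9.9e-05 and 0.0369, and its exons overlap no other annotated gene.

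The other receptor chains and kinases were not called. Ifngr1, the ligand-binding chain of the same receptor, had a log2 fold change of 0.06 ± 0.12 (SE), Ifnar1 and Ifnar2 of the type I receptor had -0.14 and 0.17, Jak1 0.06 and Jak2 -0.02. Of the 10 interferon ligand genes listed, 8 had 0 counts in all 8 libraries, which allows up to 3 counts among the 202490608 counts together. Ifnb1 had 2 counts in 1 library and Ifna2 had 1 count in 1 library.

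The remaining lists held 0 called genes. Among 16 genes of nucleic acid sensing, Tlr3, the endosomal sensor of double-stranded RNA, had the smallest unadjusted p, with 226 to 311 normalized counts in L192P and 201 to 251 in WT and a log2 fold change of 0.22 ± 0.13 (SE; DESeq2 adjusted p = 0.64). Among 9 negative regulators with an adjusted p, Rnaseh2b, a subunit of the enzyme that removes RNA from DNA hybrids, had 229 to 250 in L192P and 201 to 213 in WT, groups that did not overlap, with a log2 fold change of 0.21 ± 0.11 (SE; DESeq2 adjusted p = 0.57). Among 39 other induced genes, Cmpk2, a mitochondrial nucleotide kinase, had 793 to 994 in L192P and 728 to 768 in WT, also without overlap, with a log2 fold change of 0.20 ± 0.09 (SE; DESeq2 adjusted p = 0.40). Without L192P replicate 1 its log2 fold change was 0.11, and with replicates 2 to 4 alone it was 0.10.

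In the last list, other antigen presentation genes, the 4 largest values belonged to class II, whose molecules present peptides from outside the cell. Cd74, the invariant chain of class II, had the smallest unadjusted p, with 70.1, 214, 159 and 79.1 normalized counts in L192P and 56.5, 80.2, 67.4 and 71.4 in WT. Replicates 2 and 3 of L192P were far above the rest, and the other L192P libraries lay among the WT libraries. The log2 fold change of 0.92 ± 0.30 (SE) had a DESeq2 adjusted p of 0.12. It passed with the replicate block (adjusted p = 0.0441) and with replicates 2 to 4 alone (adjusted p = 0.0148), and also without L192P replicate 1 or without L192P replicate 4. Its adjusted p was between 0.00511 and 0.64 over the 17 alternatives, and without L192P replicate 2 the log2 fold change fell to 0.57. Cd74 was therefore called in some fits and not in the one set as the main test.
The class II chains were picked out after their values were seen. H2-Aa had 37.4, 113.8, 56.5 and 46.7 normalized counts in L192P and 32.8, 44.6, 27.2 and 25.8 in WT, with a log2 difference of 0.94 ± 0.35 (SE; DESeq2 adjusted p = 0.20). H2-Ab1 and H2-Eb1 had log2 fold changes of 0.74 ± 0.32 and 0.50 ± 0.30 (SE), and Ciita, the coactivator of class II genes, had 0.12 ± 0.39 (SE). The 4 class II genes overlapped between the genotypes.
The summed level of 7 border macrophage genes was 341, 557.6, 461 and 346 normalized counts in L192P replicates 1 to 4 and 328 to 389 in WT, highest in the 2 libraries where Cd74 was highest. Of these 7 genes 0 were called, and 6 had a log2 fold change above 0. Among 15 microglial genes, 0 were called and 14 had a log2 fold change above 0, with a summed level of 7216 to 12890 in L192P and 7910 to 9809 in WT. The microglial, choroid plexus, meningeal fibroblast and erythroid sums were also highest in L192P replicates 2 and 3, so this was not particular to border macrophages. The part of these cell types in the class II values was not tested.

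**Figure D5:**
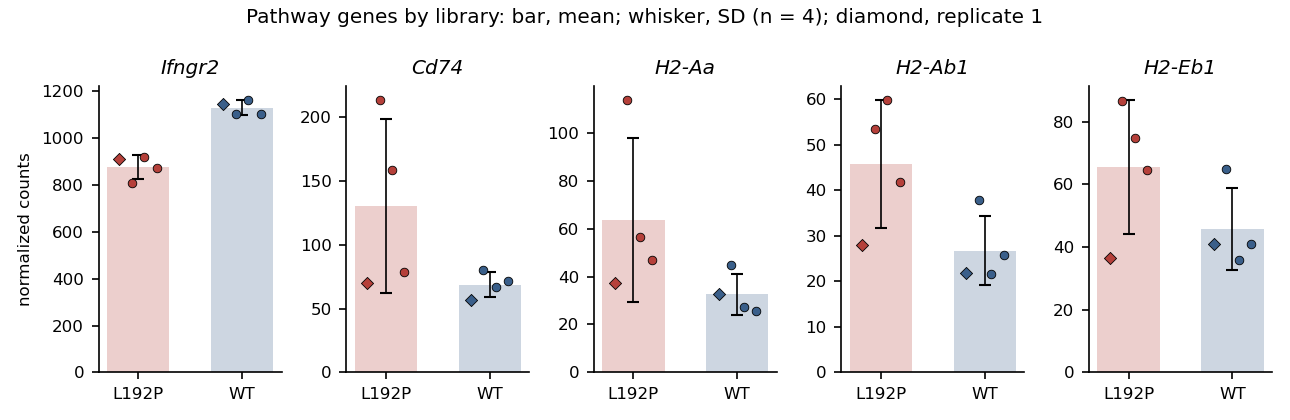
Normalized counts (y axis, from 0) of Ifngr2 and 4 class II genes in each library, with bars for the mean, whiskers for the SD (n = 4) and diamonds for replicate 1. Ifngr2 is separated between the genotypes, at 808 to 919 in L192P and 1100 to 1163 in WT, while the class II genes overlap and are highest in replicates 2 or 3 of L192P.

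Of the 91 marker genes of cortical cell types, vessels, meninges, choroid plexus and blood, 82 had an adjusted p. Of these, 2 were called, against 1.36% of all genes tested. Both were higher in L192P: Gad2, which makes GABA in interneurons, with a log2 fold change of 0.34 (DESeq2 adjusted p = 0.0235), and Slc6a13, a transporter of meningeal fibroblasts, with 0.81 (DESeq2 adjusted p = 0.0229). Slc6a13 was part of a list of 7 fibroblast genes whose summed level was 983 to 1756 normalized counts in L192P and 832 to 1156 in WT. With the replicate block 8 of 67 marker genes with an adjusted p were called, against 4.25% of all genes tested. With replicates 2 to 4 alone 14 of 77 were called, against 3.46% of all genes tested. In contrast, edgeR and limma-voom called 0 of 79, against 0.314% and 0.266% of all genes tested. DESeq2 without L192P replicate 2, WT replicate 3 or WT replicate 4 also called 0.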

How the data were processed

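Cortical mRNA was sequenced from 4 L192P and 4 WT libraries. Per the paper's methods, the authors aligned reads to GRCm39 with STAR and counted them per gene with featureCounts, and the unit used here is the deposited raw count per gene and library. The submitters' processing notes name STAR 2.7.9a, featureCounts 1.5.1 and DESeq2 1.40.2. Whether featureCounts was run with strand is not given in the sources used here. A second deposited table, counts divided by 1 factor per library, was not used. All 8 count columns were matched to libraries by name.

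Counts were fitted with DESeq2 1.42.0 in R 4.3.3 (genotype only, median-of-ratios factors, Wald test, independent filtering at 0.05), and genes were called at an adjusted p under 0.05 over all genes. Intervals are 1.96 standard errors on either side. Alternatives were edgeR 4.0.16, limma 3.58.1 (voom), TMM or total-count factors, a minimum of 10 counts in 4 libraries, no independent filtering, no Cook filter, a replicate block, replicates 2 to 4 alone and leaving out each library. Programs were tested on simulated data.

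Replicate numbers come from the labels. Deviations from the group means of same-numbered libraries correlated at 0.63, 0.38, 0.23 and 0.33 over 13422 genes, so the numbers were taken as pairing the libraries. No 2 libraries of a genotype agreed within sampling noise (chi-square per degree of freedom 5.52 to 22.6). Depth was 20396357 to 43575900 counts per library, and intervals under a count of 0 cover counting error only.

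Positions, exon lengths, overlaps and promoter windows came from GENCODE M39 on GRCm39, in which 98.8% of gene identifiers were found. Of 34 members, 17 overlap an exon of a gene on the opposite strand and 2 on the same strand. Similarity between members was computed on transcripts, since no protein table was used here. The members and lists were chosen with earlier results of these data known. Genes were named by rule: the 5 members with the highest level per length, the 3 with the largest and the 3 with the smallest log2 fold change at a mean of at least 10, the member with the smallest unadjusted p of each role, and in each pathway list the called genes and the gene with the smallest unadjusted p. Class II chains and single leukocyte genes were named outside the rule, as were the remaining members given by value. One gene of the pathway lists is not reported here by name.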

Additional observations from a re-analysis of the deposited data

Results flagged for a closer look

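Among 78 groups of 4 libraries screened (34 members and 5 pathway genes, each genotype apart), 3 held a library far from the other 3, where about 1 in 20, or 3.9 groups, would by chance. For Ifih1, L192P replicate 2 held 154 normalized counts while the other L192P libraries held 103 to 110, a gap of 0.854 of the group's range. Ifit3 had 180 in WT replicate 1 against 255 to 258 in the other WT libraries, a gap of 0.97 of the range. Cmpk2 had 994 in L192P replicate 1 against 793 to 809 in the other L192P libraries, a gap of 0.919 of the range. Without that library, the log2 fold change of Cmpk2 was 0.11 in place of 0.20.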

How the results depend on the processing

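In all 18 fits 0 members were called, among 17 to 34 members with an adjusted p. With all genes, 253 were called by the main test, against 53 with edgeR, 45 with limma-voom, 533 with the replicate block and 500 with replicates 2 to 4, and 112 to 496 when 1 library was left out, by more than 1.5 times for every library except L192P replicate 1. Of the 253, 147 were higher in L192P, against 168 of 232 with total-count factors, 44 of 53 with edgeR, 38 of 45 with limma-voom and 228 of 533 with the block. The median log2 fold change of the members (0.02) moved by less than the spread between libraries (SD 0.17) except without WT replicate 1, where it moved from 0.02 to -0.16, and it ran from -0.16 to 0.078 over the fits with 1 library left out. The other pathway genes called numbered 1, but 2 with the replicate block and with replicates 2 to 4, where Cd74 was added, and 1 to 2 when 1 library was left out (2 without L192P replicate 1 or 4, also by Cd74). The marker genes called numbered 2 of 82, against 1.36% of all genes tested. They numbered 0 of 79 with edgeR and limma-voom, against 0.314% and 0.266%. With the replicate block they numbered 8 of 67, against 4.25%, and with replicates 2 to 4 they numbered 14 of 77, against 3.46%. When 1 library was left out they numbered 0 to 12 (12 of 79 without L192P replicate 1, 5 of 79 without WT replicate 1). Of 340 values of 20 named genes, 2 changed sign, both without L192P replicate 3. Over the fits with 1 library left out, the log2 fold change of Bst2 ran from -0.10 to 0.51 and that of Ifitm3 from -0.030 to 0.33. Among the members and the other pathway genes, the block changed no call except that of Cd74. The share of member promoters with an ISRE core was 35.3% before the start site alone and 55.9% with a gap of 1 to 3 bases, against 3.32% and 9.28% of all windows. With the longest transcript in place of all exons, B2m had 771 normalized counts per kilobase. The causes were not tested. Members with fewer than 10 normalized counts are limited by depth.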
